A study of Homo sapiens with 6 samples.

Results

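Genes of NF-kB feedback and chemokine production were followed in the human hepatocellular carcinoma line MHCC97H after CRISPR/Cas9 targeting of the RNA helicase gene DDX17. The 10 genes are TNFAIP3, NFKBIA, NFKB2, RELB, BIRC3, IER3, CXCL8, CXCL1, CXCL2 and CXCL3, taken by gene name from the deposited table, where all 10 were present among 58302 rows. Total RNA was sequenced in 3 libraries of the DDX17 KO line and 3 libraries of a non-target control line, both grown in DMEM with fetal bovine serum, and no label names a cytokine treatment. The labels do not say how many guides or clones the DDX17 KO line holds, or whether the libraries came from separate cultures, so a p-value here reflects only how these libraries vary, and that variation may be technical. The title of the series asks about splicing of the antisense transcript PXN-AS1, whereas gene levels are described below, in FPKM (fragments scaled by exon length and library depth).

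NF-kB is a family of paired transcription factors held in the cytoplasm by inhibitor proteins. Signals from TNF, interleukin-1 or toll-like receptors lead to phosphorylation and loss of the inhibitor, and the freed dimers enter the nucleus and switch on genes of inflammation and survival. Among those genes are brakes on the pathway itself, so that a signal ends its own course. NFKBIA encodes the inhibitor I-kappa-B-alpha, and TNFAIP3 encodes A20, a ubiquitin-editing enzyme that shuts off receptor signalling. NFKB2 and RELB encode the subunits of the non-canonical branch. BIRC3 encodes cIAP2, a ubiquitin ligase of the TNF receptor complex, and IER3 encodes a stress-inducible regulator of cell survival. CXCL1, CXCL2, CXCL3 and CXCL8 (interleukin-8) encode secreted chemokines that draw neutrophils through the receptor CXCR2, and they are made by many epithelial tumours, hepatocellular carcinoma included.

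The low FPKM values fell on whole multiples of a step in each library, which gave depths of 5350000 to 10620000 reads in the DDX17 KO libraries and 12340000 to 14550000 reads in the controls. DDX17 stood at 22.4, 7.64 and 19.1 FPKM in DDX17 KO replicates 1, 2 and 3, against 45.7, 41.4 and 43.9 FPKM in control replicates 1, 2 and 3. Its log2 fold change was -1.48, with a limma adjusted p of 0.282, and leaving out DDX17 KO replicate 2 made it -1.04 at an adjusted p of 0.0334. Of 10 listed markers of liver cells and hepatoma, the cytokeratin genes KRT8 and KRT18 were abundant. ALB and AFP were listed at 0 in every DDX17 KO library and stood at no more than 0.365 FPKM in the controls, so these defining liver markers were nearly absent from both lines. The 13 leukocyte markers summed to 2.33 to 3.74 FPKM in the DDX17 KO libraries and 2.07 to 2.70 FPKM in the controls, mostly from CD68, and CSF1R averaged 0.169 FPKM in DDX17 KO and 0.679 FPKM in controls. CD3E, CD3D and TYROBP were at 0 in all 6 libraries, and PTPRC was at 0 in 5 of them. The 11 endothelial and fibroblast markers summed to between 50.7 and 92.2 FPKM in the DDX17 KO libraries and between 40.9 and 49.1 FPKM in the controls, mostly from collagen genes that lay on opposite sides. COL3A1 had 46.8 ± 28.8 FPKM in DDX17 KO and 22.2 ± 2.91 FPKM in controls, and COL1A1 had 8.22 ± 2.88 FPKM in DDX17 KO and 13.6 ± 1.8 FPKM in controls (SD, n = 3 each). COL1A1 passed as lower without DDX17 KO replicate 2, at a limma adjusted p of 0.0449. The 8 red cell markers summed to between 0.0211 and 0.673 FPKM in the DDX17 KO libraries and between 54.0 and 69.6 FPKM in the controls. Of the 6 genes that passed over all genes 3 were globin genes, HBB and the near-identical copies HBA1 and HBA2, between which reads may be split. HBB and HBA2 were listed at 0 in every DDX17 KO library and averaged 26.1 ± 3.17 and 15.8 ± 1.75 FPKM in controls (SD, n = 3), at limma adjusted p of 8.15e-05 and 0.000112. DDX5, the paralogue of DDX17, had 26.4 ± 1.87 FPKM in DDX17 KO and 14.4 ± 5.21 FPKM in controls (SD, n = 3 each), at an adjusted p of 0.351. The part of these marker genes' sources in the results was not tested.

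NF-kB dimers bind a short, partly variable element, the kappa-B site. The degenerate kappa-B consensus was searched on both strands in RefSeq promoter windows (GRCh38.p14) running from 250 bases before to 50 bases after each start site. Of the 10 genes 8 matched the table, while IER3 and RELB did not. The consensus occurred in 7 of those 8 genes, all but CXCL8. Counted by window, it occurred in 8 of their 10 windows and in 5.91% of all 35116 windows. The 10-letter element GGGAATTTCC, which is a special case of that consensus, was taken from the CXCL1 window, so its presence there was fixed in advance. The element also occurred in CXCL2, CXCL3 and, on the opposite strand, NFKBIA, and in 0.145% of all windows. CXCL8 held only its last 9 letters, GGAATTTCC, which occurred in 0.461% of all windows. The stretches are given 5′ to 3′ on the strand of each gene, to set their kappa-B matches side by side. Capitals mark the consensus matches, those on opposite strands merged, and in CXCL8 the 9 letters.
CXCL1: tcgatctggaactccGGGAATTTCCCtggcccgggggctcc
CXCL2: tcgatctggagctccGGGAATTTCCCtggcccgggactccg
CXCL3: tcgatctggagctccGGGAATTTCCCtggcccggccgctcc
CXCL8: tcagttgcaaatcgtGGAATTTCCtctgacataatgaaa
TNFAIP3: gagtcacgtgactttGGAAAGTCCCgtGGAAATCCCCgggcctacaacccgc
NFKBIA: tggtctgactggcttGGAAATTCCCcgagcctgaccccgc
BIRC3: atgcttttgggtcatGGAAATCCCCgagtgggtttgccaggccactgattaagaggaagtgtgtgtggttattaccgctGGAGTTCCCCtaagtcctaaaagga
NFKB2: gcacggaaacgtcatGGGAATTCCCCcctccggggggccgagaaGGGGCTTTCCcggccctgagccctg

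The 8 stretches lie at chr4:73869299-73869339 on the plus strand (CXCL1), chr4:74099248-74099288 on the minus strand (CXCL2), chr4:74038743-74038783 on the minus strand (CXCL3) and chr4:73740463-73740501 on the plus strand (CXCL8). Those of TNFAIP3, NFKBIA, BIRC3 and NFKB2 lie at chr6:137867177-137867228 on the plus strand, chr14:35404806-35404845 on the minus strand, chr11:102317270-102317373 on the plus strand and chr10:102394456-102394524 on the plus strand. Another start site of NFKB2 had a further stretch, with 2 consensus matches, at chr10:102395514-102395708 on the plus strand. That stretch is not printed. In CXCL1, CXCL2 and CXCL3 the element began 78 or 79 bases before the start site. A run of 23 bases around it, ctccGGGAATTTCCctggcccgg, was identical in these 3 genes. Their 300-base windows were 71.9% to 82.5% identical to each other by global alignment and 45.2% to 47.9% identical to that of CXCL8. The CXCL8 window also held the AP-1 element TGANTCA, which was searched on both strands and occurred in 7.71% of all windows and in no other of the 8 genes. A match is a run of letters and does not show that a factor was bound in these cells.

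**Figure D1:**
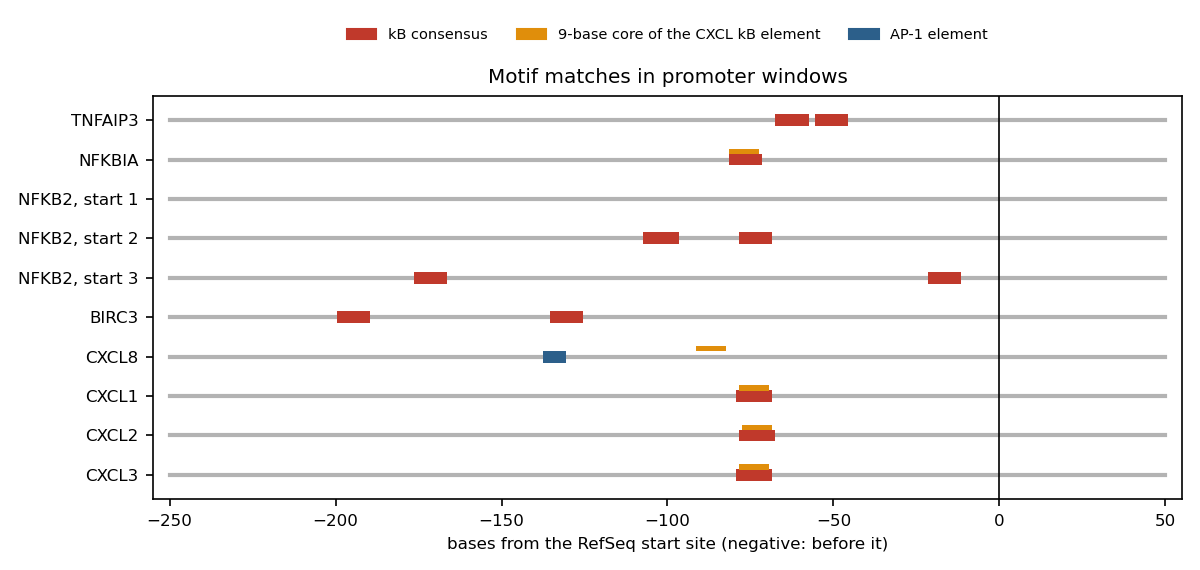
Positions of motif matches in the 10 promoter windows of 8 genes, in bases from the RefSeq start site, with NFKB2 shown at each of its 3 annotated starts. Grey lines are the windows and coloured bars the matches on either strand, and the bars of CXCL1, CXCL2 and CXCL3 sit at nearly the same distance from the start.

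Of the 7 genes tested 6 lay below 0 in log2 fold change, DDX17 KO over control, and BIRC3 lay above, beside 52.5% of all tested genes below 0 and 47.5% above. None of the 7 passed the test over all genes. A gene was tested with limma on log2(FPKM + 1) where its mean over the 6 libraries reached 0.5 FPKM, which left 7 of the 10 genes, without RELB, CXCL1 and CXCL3. At a limma adjusted p under 0.05, 0 of the 7 passed, and 0.0384% of all 15620 genes tested passed, each lower in DDX17 KO. With the replicate number as a block 0 of the 7 passed again, beside 0.0256% of all genes. At an unadjusted p under 0.05, 3 of the 7 were lower (TNFAIP3, CXCL8 and CXCL2) and 0 were higher, beside 7.19% of all tested genes lower and 6.31% higher. CXCL8 reached the filter only through the controls, with a mean of 0.425 FPKM in DDX17 KO and 1.27 FPKM in controls. Its place in the counts and medians of the 7 genes, here and below, is therefore no support for a direction. The members were chosen with earlier results of these data known, so their counts beside those of all genes are no independent support either. The groups did not overlap in TNFAIP3, NFKB2, RELB, CXCL8 and CXCL2. Those are 4 of the 7 tested genes, each lower in DDX17 KO, where 12.6% of all tested genes were lower and 8.09% higher without overlap. Among the 30603 genes above 0 in any library the shares were 8.42% lower and 6.99% higher, beside 5 of the 10 genes lower and 0 higher. The median log2 fold change of the 7 genes was -0.52, and that of all genes tested was -0.03. Under the filter at 2 FPKM, which leaves out CXCL8, the median of the members was -0.42. With a correction for GC content and length the median of the 7 genes was -0.26. In bulk RNA, fewer cells that make a transcript and less of it per cell cannot be told apart.

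**Figure D2:**
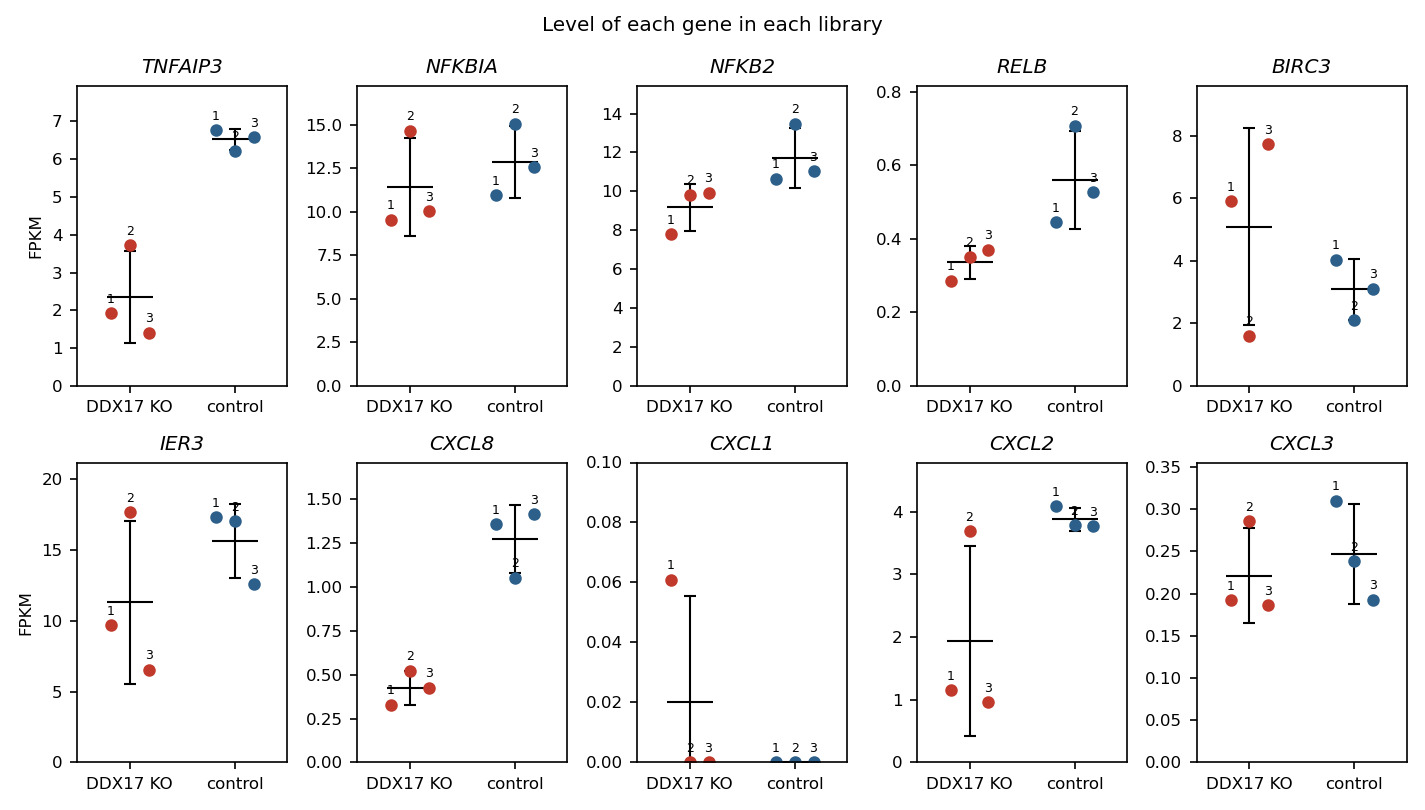
Level of each of the 10 genes in FPKM (vertical axes, from 0, each with its own scale) in 3 DDX17 KO libraries (red) and 3 control libraries (blue), numbered by replicate; black marks are the mean and SD. DDX17 KO replicate 2 lies nearest to the controls in TNFAIP3 and CXCL2, among or above them in NFKBIA and IER3, and below them in BIRC3.

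The genes differed widely in level. To compare genes, depth-scaled reads were divided by the length of the merged exons, and the order was read in the controls. NFKBIA and IER3 led with means of 37.9 and 29.9 on this depth-scaled scale of reads per kilobase. NFKB2 followed with a mean of 16.6 and TNFAIP3 with a mean of 16.2. CXCL2 and BIRC3 averaged 5.90 and 5.88, CXCL8 and RELB 1.61 and 1.28, and CXCL3 0.437. Within each of these 4 pairs the control ranges overlapped, and between neighbouring pairs they did not. CXCL1 was at 0 in the controls.

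TNFAIP3, the gene of A20 (ENSG00000118503, hg38 chromosome 6, 137867188 to 137883312), was the member furthest below its control level on the log2(FPKM + 1) scale. It stood at 1.93, 3.72 and 1.41 FPKM in DDX17 KO replicates 1, 2 and 3, against 6.77, 6.22 and 6.58 FPKM in the controls. Every DDX17 KO library was below every control, and the controls lay close together. These values rest on 145 to 257 reads per DDX17 KO library and 1048 to 1201 reads per control. The means were 2.35 ± 1.21 FPKM in DDX17 KO and 6.52 ± 0.28 FPKM in controls (SD, n = 3 each). Limma put the log2 fold change at -1.22 ± 0.26 (SE; 95% confidence interval -1.83 to -0.62), at an adjusted p of 0.247. By exact two-sided permutation p was 0.1, for TNFAIP3 and for each of the other genes without overlap, and 3 libraries a group can give nothing smaller. Leaving out DDX17 KO replicate 2 made it -1.50 at a limma adjusted p of 0.0231. Among 20 other settings the adjusted p lay between 0.0231 and 0.719. An antisense gene, AL357060.1, overlaps the locus, and no source used here states that reads were assigned by strand.

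NFKBIA, the gene of I-kappa-B-alpha (ENSG00000100906, chromosome 14, 35401511 to 35404749), did not separate the groups. Its levels were 9.56, 14.7 and 10.1 FPKM in DDX17 KO replicates 1, 2 and 3, against 10.9, 15.1 and 12.6 FPKM in control replicates 1, 2 and 3. In both lines the library numbered 2 was the highest. The log2 fold change came to -0.17 (95% confidence interval -0.69 to 0.35), at a limma adjusted p of 0.698. After correction for GC content and transcript length it was 0.03, on the other side of 0.

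The subunit genes of the non-canonical branch were lower in each DDX17 KO library than in each control. Mean FPKM in DDX17 KO was 21.7% lower for NFKB2 and 40.0% lower for RELB, the latter on few reads. NFKB2 (ENSG00000077150, chromosome 10, 102394110 to 102402529) had 7.80, 9.82 and 9.94 FPKM in DDX17 KO replicates 1, 2 and 3, against 10.6, 13.5 and 11.0 FPKM in the controls. The gap between the groups was smaller than the spread within either. For NFKB2 the log2 fold change came to -0.32 (95% confidence interval -0.76 to 0.12), at a limma adjusted p of 0.429. After the correction for GC content and length it was 0.0027, so its direction did not hold there. RELB (ENSG00000104856, chromosome 19, 45001430 to 45038198) had 0.286, 0.352 and 0.370 FPKM in DDX17 KO replicates 1, 2 and 3, against 0.446, 0.708 and 0.527 FPKM in the controls. These were 21, 13 and 21 reads in DDX17 KO and 38, 68 and 53 reads in the controls. RELB lay below the filter on low levels. Tested by voom on the recovered reads, an alternative chosen after seeing the data, it gave a log2 fold change of -0.71 (95% confidence interval -1.44 to 0.01) and an adjusted p of 0.331.

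BIRC3 and IER3, the genes of cell survival, overlapped between the lines. BIRC3 (ENSG00000023445, chromosome 11, 102317450 to 102339403) had 5.91, 1.60 and 7.74 FPKM in DDX17 KO replicates 1, 2 and 3, against 4.04, 2.10 and 3.11 FPKM in the controls. DDX17 KO replicates 1 and 3 were above every control, and replicate 2 was below every control. It was the only tested member with a log2 fold change above 0, at 0.43 (95% confidence interval -0.60 to 1.45), with a limma adjusted p of 0.620. Without DDX17 KO replicate 2 the log2 fold change was 0.96 with an adjusted p of 0.0649, without replicate 1 it was 0.25 and without replicate 3 it was 0.08. It was also 0.25 without control replicate 2. IER3 (ENSG00000137331, chromosome 6, 30743199 to 30744554) had 9.69, 17.7 and 6.53 FPKM in DDX17 KO replicates 1, 2 and 3, against 17.3, 17.0 and 12.6 FPKM in the controls. DDX17 KO replicates 1 and 3 were below every control, and replicate 2 was above all of them. For IER3 the log2 fold change came to -0.52 (95% confidence interval -1.30 to 0.25), at a limma adjusted p of 0.455. It was -0.88 without DDX17 KO replicate 2 and -0.22 without replicate 3. IER3 shares its locus with the antisense gene IER3-AS1.

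CXCL8, the gene of interleukin-8 (ENSG00000169429, chromosome 4, 73740506 to 73743716), had the lowest ratio of mean FPKM, DDX17 KO over control, of the 7 tested genes. Its levels were 0.328, 0.521 and 0.425 FPKM in DDX17 KO replicates 1, 2 and 3, against 1.36, 1.05 and 1.41 FPKM in the controls. Every DDX17 KO library lay well below the lowest control, replicate 2 included. The counts behind them were 10, 8 and 10 reads in DDX17 KO and 48, 42 and 59 reads in the controls. The means were 0.425 ± 0.097 FPKM in DDX17 KO and 1.27 ± 0.19 FPKM in controls (SD, n = 3 each), a mean 66.7% lower in DDX17 KO. On log2(FPKM + 1), which understates the change of so low a gene, limma gave a log2 fold change of -0.67 ± 0.16 (SE) at an adjusted p of 0.279. By voom on recovered reads it was -1.59 (95% confidence interval -2.37 to -0.80) at an adjusted p of 0.170. Leaving out 1 library at a time moved the limma value between -0.75 and -0.62.

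CXCL2 (ENSG00000081041, chromosome 4, 74097035 to 74099293), the chemokine gene with the most reads here, was low in DDX17 KO replicates 1 and 3 and close to control in replicate 2. It had 1.16, 3.69 and 0.962 FPKM in DDX17 KO replicates 1, 2 and 3, against 4.09, 3.79 and 3.77 FPKM in the controls. The groups were separated only by the small gap between DDX17 KO replicate 2 and the lowest control. These values rest on 28, 45 and 18 reads in DDX17 KO and 115, 120 and 125 reads in the controls. Limma put the log2 fold change at -0.85 ± 0.33 (SE; 95% confidence interval -1.61 to -0.09), at an adjusted p of 0.369. Leaving out DDX17 KO replicate 2 made it -1.25 at an adjusted p of 0.0264, and among 20 other settings the adjusted p lay between 0.0264 and 0.790. By voom on recovered reads it was -1.34 at an adjusted p of 0.264.

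CXCL3 and CXCL1, close relatives of CXCL2 that share its promoter element, were hardly detected. CXCL3 (ENSG00000163734, chromosome 4, 74036589 to 74038807) had 0.192, 0.286 and 0.186 FPKM in DDX17 KO replicates 1, 2 and 3, against 0.310, 0.238 and 0.193 FPKM in the controls. The groups overlapped, on 8, 6 and 6 reads in DDX17 KO and 15, 13 and 11 reads in the controls, and a difference was not detectable at this depth. CXCL1 (ENSG00000163739, chromosome 4, 73869393 to 73871242) had 1 read in DDX17 KO replicate 1 and 0 reads in the other 5 libraries. A count of 0 allows up to 3 reads, which make 0.362 FPKM in the shallowest library, DDX17 KO replicate 2, and 0.133 FPKM in the deepest, control replicate 3. These limits cover counting error only. The 4 chemokine genes have near relatives, and no source used here states how reads that match more than 1 of them were counted. In the list of related chemokine genes and receptors none of the 8, CXCL5, CXCL6, PPBP, PF4, PF4V1, CXCR1, CXCR2 and ACKR1, reached the filter of 0.5 FPKM, and they summed to at most 0.0341 FPKM in a DDX17 KO library and 0.384 FPKM in a control.

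**Figure D3:**
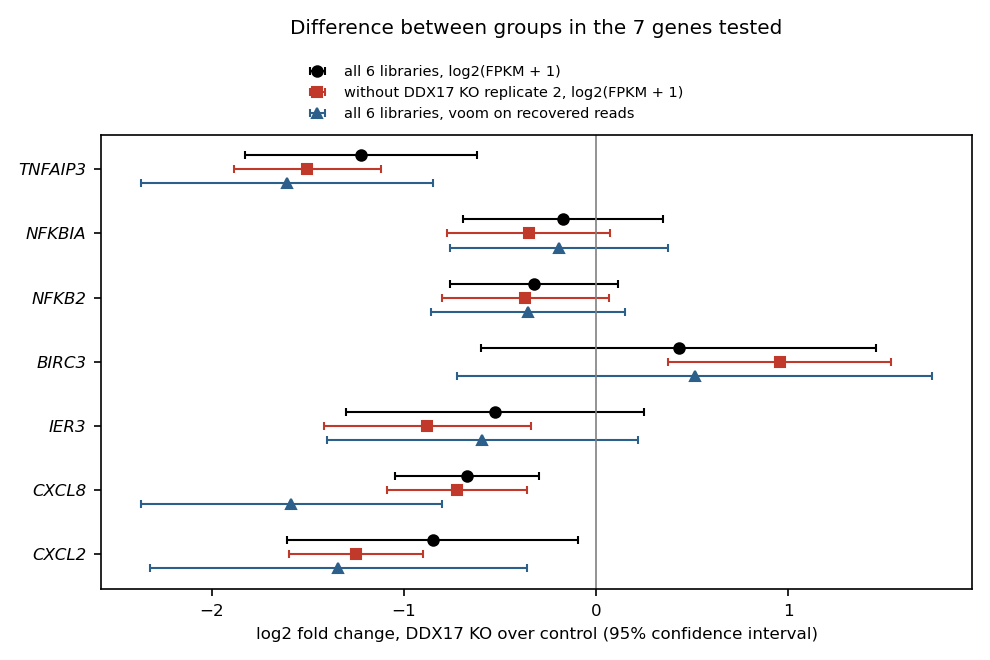
Log2 fold change of DDX17 KO over control with its 95% confidence interval (horizontal axis) for the 7 genes tested, on log2(FPKM + 1) with all 6 libraries (black), the same without DDX17 KO replicate 2 (red), and by voom on recovered reads (blue). BIRC3 lies above 0 in each of the 3 fits and every other gene lies below 0, and CXCL8 moves from -0.67 to -1.59 between the scales.

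The values of several members turned on DDX17 KO replicate 2. That library had the least DDX17, at 7.64 FPKM against 22.4 and 19.1 FPKM in replicates 1 and 3. It was also the shallowest, at 5350000 reads. The part of DDX17 level or depth in these values was not tested. Without DDX17 KO replicate 2, TNFAIP3 and CXCL2 passed as lower at a limma adjusted p under 0.05, 2 of the 7 tested genes. Over all genes 3.66% passed, 1.72% lower and 1.95% higher. The median of the 7 genes was then -0.72, and that of all genes -0.05. With control replicate 2 left out as well, a choice made after seeing the data, CXCL8 passed too, making 3 of 7. Over all genes 3.30% passed as lower and 5.51% as higher. CXCL8 had reached the filter only through the controls, so its pass is no support for a direction. Replicate 2 differed from replicates 1 and 3 by 1.19 in CXCL2, 1.06 in IER3 and 0.83 in TNFAIP3 on log2(FPKM + 1), and by -1.58 in BIRC3. In the controls the same differences were -0.04, 0.19, -0.09 and -0.55. Over all tested genes the median difference of replicate 2 rose with transcript GC content in both lines, while the members did not all follow it. In the 1557 tested genes with the lowest GC content the median difference of replicate 2 was -0.55 in DDX17 KO and -0.35 in controls, and in the 1557 with the highest it was 0.45 in DDX17 KO and 0.27 in controls. BIRC3, with 34.8% GC in its longest transcript, lay below 0 in both lines, while CXCL2, with 46.0% GC, lay in a range where the median was near 0. CXCL8, with 33.4% GC, was 0.15 higher in DDX17 KO replicate 2. NFKB2, with 62.4% GC, and RELB, with 65.4% GC, were 0.14 and 0.03 higher there. The part of GC content in these differences was not tested apart from the correction given next. After a correction for GC content and length the log2 fold changes were -1.14 for TNFAIP3, -0.87 for CXCL8, -0.88 for CXCL2, -0.26 for IER3 and 0.17 for BIRC3.

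**Figure D4:**
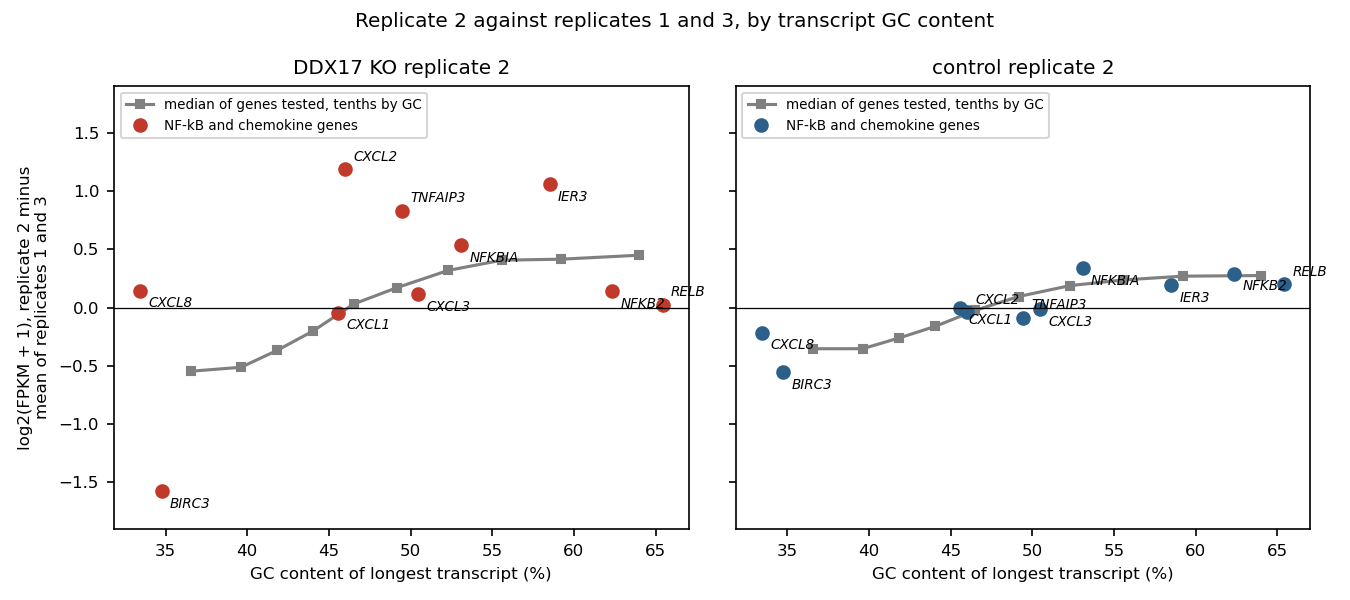
Difference between replicate 2 and the mean of replicates 1 and 3 on log2(FPKM + 1) (vertical axis) against GC content of the longest transcript in percent (horizontal axis), in DDX17 KO (left) and control (right). Grey squares are medians of all genes tested in 10 bins by GC content, and coloured points are the 10 genes; CXCL2, IER3 and TNFAIP3 lie above the grey line in DDX17 KO and BIRC3 far below it.

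Genes of AP-1 and the immediate early response were low in the same DDX17 KO libraries, replicates 1 and 3, as TNFAIP3 and CXCL2. That response is the rapid, short-lived induction of transcription factor genes such as FOS and EGR1 by growth factors and stress. The 18 genes of this list summed to 203, 781 and 181 FPKM in DDX17 KO replicates 1, 2 and 3, against 702, 903 and 722 FPKM in the controls. In this sum DDX17 KO replicate 2, with 432 FPKM from DUSP1 alone, lay within the control range, and replicates 1 and 3 lay far below it. In 4 of the 16 tested genes, JUN, JUNB, JUND and FOSB, every DDX17 KO library, replicate 2 included, lay below every control. In 0 of them every DDX17 KO library lay above. Of all tested genes 12.6% were lower and 8.09% higher without overlap. All 16 tested genes of the list lay below 0 in this fit, their median log2 fold change being -0.99, and 0 passed over all genes. This list was chosen with earlier results of these data known, so its counts and medians are no independent support for a direction. Without DDX17 KO replicate 2 the median was -1.33 and 8 of the 16 passed as lower, namely ATF3, DUSP1, EGR1, FOS, FOSB, JUN, JUND and NR4A1, beside 1.72% of all genes. In the replicate left out, FOS stood at 41.7 FPKM, above every control (23.45, 29.2 and 29.3 FPKM). ATF3, DUSP1, EGR1 and NR4A1 lay within the control range there. DUSP1 and JUNB are the most abundant genes of the list. DUSP1, a MAP kinase phosphatase gene, had 76.0, 432 and 80.7 FPKM in DDX17 KO replicates 1, 2 and 3, against 401, 521 and 407.5 FPKM in the controls. JUNB had 38.8, 61.0 and 22.2 FPKM in DDX17 KO and 65.0, 87.1 and 73.6 FPKM in the controls, each in the order of replicates 1, 2 and 3. Whether the level of these genes has a part in that of the NF-kB targets was not tested.

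The core of the pathway itself was detected in both lines. In the list of other subunits, inhibitors and kinases 13 of 14 genes were tested, 0 passed in either direction, 9 lay below 0 and the median log2 fold change was -0.20. The most abundant by the naming rule were NFKB1 and TBK1. NFKB1, the p50 precursor, had 5.62 ± 0.697 FPKM in DDX17 KO and 6.51 ± 0.38 FPKM in controls (SD, n = 3 each). TBK1, a kinase of innate sensing, had 8.38 ± 2.30 FPKM in DDX17 KO and 5.47 ± 1.52 FPKM in controls. In 6 of the 13 genes every DDX17 KO library lay below every control and in 0 above, beside 12.6% of all tested genes lower and 8.09% higher without overlap. Among these, chosen after their values were seen, IKBKG, which encodes the scaffold NEMO of the IKK complex, had 2.31 ± 0.10 FPKM in DDX17 KO and 4.31 ± 0.79 FPKM in controls. IKBKG has a near-identical pseudogene copy, so its reads are uncertain. MAP3K14, the kinase gene NIK of the non-canonical branch, had 3.35 ± 0.31 FPKM in DDX17 KO and 5.42 ± 1.09 FPKM in controls. BCL3, an atypical I-kappa-B gene, had 1.25, 2.41 and 1.19 FPKM in DDX17 KO replicates 1, 2 and 3, against 3.75, 4.56 and 3.07 FPKM in the controls, and passed without DDX17 KO replicate 2 at a limma adjusted p of 0.0370.

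Receptors and adaptors upstream showed no common direction. Of 41 listed genes 31 were tested, 17 lay below 0 and 14 above, 0 passed, and the median log2 fold change was -0.10. The most abundant, FADD and TNFRSF12A, had means of 18.6 ± 4.53 and 17.4 ± 9.11 FPKM in DDX17 KO, against 24.5 ± 3.53 and 22.9 ± 6.27 FPKM in controls (SD, n = 3 each). IRAK1, a kinase of interleukin-1 and toll-like receptor signalling chosen after its values were seen, had 11.3, 10.4 and 11.2 FPKM in DDX17 KO replicates 1, 2 and 3, against 21.5, 29.1 and 17.4 FPKM in the controls. Its log2 fold change was -0.96 with a limma adjusted p of 0.272. Also chosen after their values were seen, CD40 was at 0 in all libraries and the adaptor gene MYD88 reached no more than 0.0715 FPKM in any.

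Other targets of NF-kB lay mostly below 0, without passing. Of 42 listed genes 23 were tested, 19 lay below 0 and 4 above, the median log2 fold change was -0.27 and 0 passed in either direction. At an unadjusted p under 0.05, 8 were lower and 1 was higher, beside 7.19% of all genes lower and 6.31% higher. Without overlap between the groups 8 were lower and 1, PTGS2, was higher, beside 12.6% and 8.09% of all genes. TNF, CSF2, CSF3, LTB, VCAM1, CXCL10, CXCL11 and BCL2A1 were at 0 in all 6 libraries. The most abundant were OLR1 and SDC4, at 17.8 ± 16.1 and 11.0 ± 1.69 FPKM in DDX17 KO and 15.3 ± 4.57 and 13.5 ± 1.79 FPKM in controls (SD, n = 3 each). Some genes were chosen after their values were seen. IL6, the cytokine gene, had 0.403, 0.915 and 0.571 FPKM in DDX17 KO replicates 1, 2 and 3, against 1.27, 1.09 and 1.35 FPKM in the controls. LIF, a cytokine gene of the IL6 family, had 2.56 ± 1.08 FPKM in DDX17 KO and 5.83 ± 0.93 FPKM in controls (SD, n = 3 each). PTGS2, the cyclooxygenase-2 gene, stood on the other side, with 9.03, 4.98 and 9.79 FPKM in DDX17 KO replicates 1, 2 and 3 and 4.53, 3.10 and 4.69 FPKM in the controls. Without DDX17 KO replicate 2, PTGS2 passed as higher, and GADD45B, NUAK2 and EFNA1 passed as lower, by limma over all genes. Of all genes 1.72% passed as lower and 1.95% as higher there. NUAK2 passed narrowly, at a limma adjusted p of 0.0498. EFNA1 had 16.1 FPKM in the replicate left out, within the control range of 13.0 to 16.3 FPKM.

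**Figure D5:**
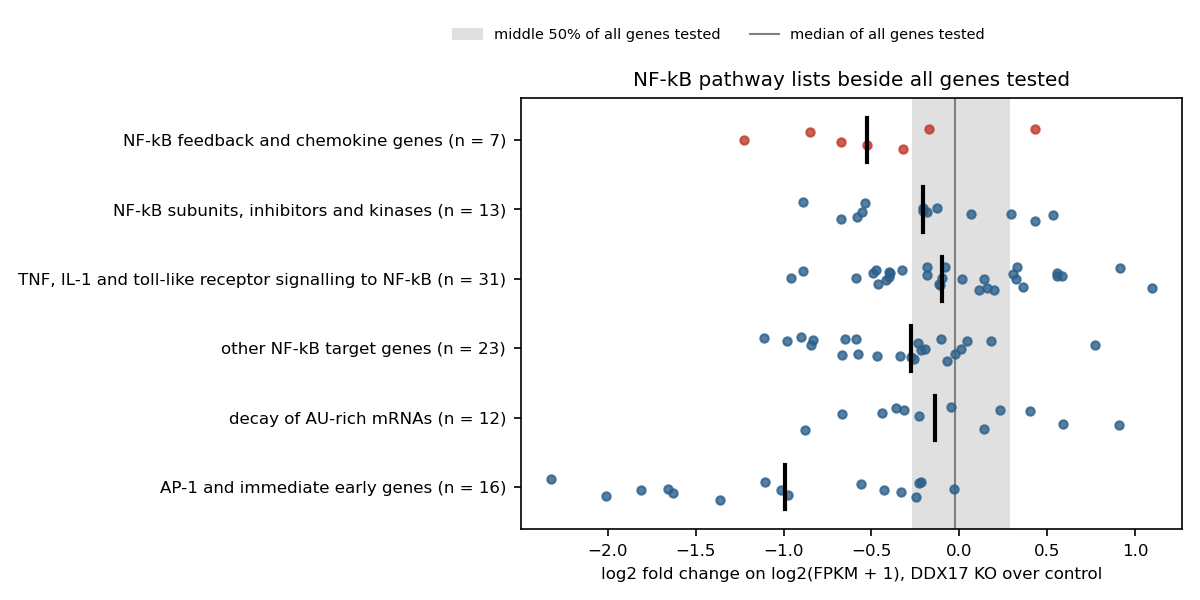
Log2 fold change of DDX17 KO over control on log2(FPKM + 1) (horizontal axis) for each tested gene of 6 lists (rows). Points are genes, black bars are list medians, and the grey band and line are the middle 50% and the median of all 15620 genes tested; the medians run from -0.10 in the receptor and adaptor list to -0.99 in the AP-1 list, with the NF-kB feedback and chemokine genes at -0.52.

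The genes most like the members in pattern over the 6 libraries were RPSAP51, PRKAR2A, GIPC1, APOO and HRCT1. From 5797 other genes that averaged 5 FPKM or more, these were the 5 whose log2(FPKM + 1) correlated best with the mean of the 7 tested members. Pearson's r ran from 0.983 to 0.991 over 6 libraries in 2 groups, and it describes a shared split between the lines. RPSAP51 had 2.04, 6.66 and 2.64 FPKM in DDX17 KO replicates 1, 2 and 3, against 12.3, 10.6 and 9.80 FPKM in the controls, and as a pseudogene of RPSA it may share reads with its parent gene. HRCT1 had 10.7, 16.7 and 11.8 FPKM in DDX17 KO and 30.3, 30.6 and 30.0 FPKM in the controls, each in the order of replicates 1, 2 and 3. In each of the 5 genes replicate 2 was the DDX17 KO library nearest to the controls. That was also its place in the mean of the members, so it follows from how the genes were chosen.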

How the data were processed

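FPKM values of every gene in the 6 libraries were deposited by the authors as 1 table. Per the submitters' processing notes, edgeR, StringTie, HISAT2 and CASAVA 1.8 were used with hg38, with no role stated. Annotation release, strand setting and filters were not given in the sources used here. FPKM times the summed length of all distinct exon entries in GENCODE release 29 was within 0.05 of a whole number in 92.5% to 92.9% of values of up to 20 reads in genes with several transcripts, where chance gives 10%. That recovered the reads and depth of each library, and with them the precision of low genes.

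Tests were two-sided, on log2(FPKM + 1) with limma 3.58.1 (R 4.3.3) and its trend option, for the 15620 genes averaging 0.5 FPKM or more. Their p-values were adjusted over all of these by Benjamini-Hochberg, with a threshold of 0.05. Exact permutation tests used 20 arrangements of the libraries. Alternatives were a replicate block, other pseudocounts, scalings, filters and variance models, and each library left out. Voom on recovered reads (values given are for genes with at least 10 reads in all), a spline correction for GC content and length, and leaving out both libraries numbered 2 were added after seeing the data. No label pairs the libraries. The replicate number was used as a block, and deviations from the group mean of the 2 libraries numbered 2 correlated across genes at 0.546. Deviations within a group sum to 0, so that likeness alone raises the correlations among numbers 1 and 3, which ran from 0.190 to 0.330. Those values do not show pairing, and numbers 1 and 3 were not told apart. The correlations come from the same data as the block fit. Figures and promoter searches used Python 3.11.15.

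The members and gene lists were chosen with earlier results of these data known. Their counts and medians, set beside those of all genes, are therefore descriptions and no independent support for a direction. The genes named were DDX17, the 10 members, from each list up to 2 genes per direction past the threshold or else the 2 with the highest mean, and the 5 most like the members. Others are marked as chosen after their values were seen.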

Additional observations from a re-analysis of the deposited data

How the results depend on the processing

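Of 20 other settings, 18 left 0 of the members each could test past the threshold by limma. The filter at 2 FPKM could not test CXCL8, while the fit without a filter tested all 10 members and voom at 10 reads tested 9. The count was 2 without DDX17 KO replicate 2 (TNFAIP3 and CXCL2). With both libraries numbered 2 left out it was 3, with CXCL8, which reached the filter only through the controls, at a limma adjusted p of 0.0447. It ran from 0 to 2 with single libraries left out. Among genes of the pathway and RNA decay lists, with 13, 31, 23, 0 and 12 genes tested, the count was 0. It ran from 0 to 6 with single libraries left out. The 6 were without DDX17 KO replicate 2, where 3.66% of all genes passed. With both libraries numbered 2 left out the count was 12, beside 3.30% of all genes lower and 5.51% higher. Over all 15620 genes tested 6 passed. That count was 3 without a filter, 11 with the GC and length correction, 1376 with both libraries numbered 2 left out, and from 3 to 572 with single libraries left out, the 572 being without DDX17 KO replicate 2. The median of the members, -0.52, was -0.26 with the GC and length correction, with and without the replicate block, and -0.79 with both libraries numbered 2 left out. It ran from -0.72 to -0.38 with single libraries left out. The direction turned only in NFKBIA, at 0.0306, and NFKB2, at 0.0027, each with the GC and length correction with and without the block; the cause was not tested. Voom moved RELB from -0.22 to -0.71 and CXCL3 from -0.03 to -0.15. With the replicate number as a block, 4 genes passed over all genes, 0 of them members, and it changed no call of a member. In that fit the limma adjusted p of TNFAIP3 was 0.0714 and that of CXCL8 0.0889. Genes outside the members had like values, such as 0.070 for PTGS2 and 0.080 for DDX5. At an unadjusted limma p under 0.05 the block fit had 13.4% of all genes lower and 15.1% higher, where the main fit had 7.19% and 6.31%. Depth limits CXCL1, CXCL3, RELB and CXCL8, whose DDX17 KO libraries held 0 to 21 reads each.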

Other observations

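Chemokine mRNAs carry AU-rich elements and are short-lived, and proteins that bind or destroy such mRNAs were described as a further list. All 12 listed genes were tested, 7 lay below 0 and 5 above, 0 passed in either direction, and the median log2 fold change was -0.14. The most abundant, KHSRP and ELAVL1, had 29.7 ± 10.7 and 21.7 ± 3.40 FPKM in DDX17 KO and 36.1 ± 5.6 and 28.0 ± 3.52 FPKM in controls (SD, n = 3 each). ZFP36L1, a gene of the tristetraprolin family chosen after its values were seen as was ZC3H12A below, had 4.70, 6.73 and 4.65 FPKM in DDX17 KO replicates 1, 2 and 3, against 9.61, 11.8 and 10.4 FPKM in the controls. It passed as lower without DDX17 KO replicate 2, at a limma adjusted p of 0.0343, and not with all libraries, at 0.264. ZC3H12A, which encodes the RNase regnase-1, had 3.35, 4.96 and 2.49 FPKM in DDX17 KO replicates 1, 2 and 3, against 5.83, 6.94 and 5.70 FPKM in the controls.

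By their whole-read steps, the deposited FPKM values divide reads by the summed length of every distinct annotated exon entry, so genes with many annotated transcripts appear lower than their reads per kilobase of merged exons. For NFKBIA, with 10 annotated transcripts, the divisor was 6982 bases where the merged exons span 2373 bases, a ratio of 2.94. For TNFAIP3, with 11 transcripts, it was 12550 bases against 5051, a ratio of 2.48, and for CXCL1, with 2 transcripts, the ratio was 1.19. In the controls IER3 led NFKBIA in deposited FPKM, at 15.6 ± 2.63 and 12.9 ± 2.07 FPKM, and NFKBIA led IER3 by merged length (SD, n = 3 each). Ratios between libraries within a gene do not depend on this divisor.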
